A study of Mus musculus with 21 samples.

Results

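The VEGF and angiopoietin family was followed through kidney macrophages as 10 genes chosen by symbol, out of 34236 gene names in the count table. They were the ligands *Vegfa*, *Vegfb*, *Vegfc* and *Pgf*, the angiopoietins *Angpt1* and *Angpt2*, the neuropilin co-receptors *Nrp1* and *Nrp2*, and the receptors *Flt1* and *Kdr*. Each symbol stood on 1 line of the table, so none needed summing, and all 10 passed a filter on low counts in a fit over the 6 groups. Macrophages were sorted by flow cytometry from kidneys of male C57BL/6J mice, 24 weeks old by the labels, with a sort time of 5 h. Mice had renal artery stenosis (RAS), made with a cuff around the right renal artery, or Sham surgery, and no transgene or drug was part of the design. F4/80+CD64+ cells were divided into kidney resident macrophages (KRM) and into CD11chi and CD11clo Mϕ, which the labels describe as derived from monocytes. RNA was sequenced from KRM in 4 Sham and 3 RAS libraries, from CD11chi Mϕ in 3 Sham and 4 RAS libraries, and from CD11clo Mϕ in 3 Sham and 4 RAS libraries. The study gives its n for the Sham groups in mice, in the same numbers as these libraries. Its n for each RAS group is 3, while 4 RAS libraries each of CD11chi and CD11clo Mϕ were used here. It does not say whether cells of several mice were pooled, so p-values measure the spread between these libraries.

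VEGF-A is the main growth factor of capillary endothelium, and in the kidney podocytes and tubules release it toward glomerular and peritubular capillaries. It binds KDR, the main signalling receptor of endothelium, and FLT1, which binds it tightly, signals weakly and is also carried by monocytes and macrophages. PlGF and VEGF-B bind FLT1, VEGF-C drives lymphatic growth, and neuropilins present VEGF to these receptors and also bind class 3 semaphorins. Angiopoietin-1 stabilises vessels through the receptor encoded by *Tek*, and angiopoietin-2 mostly opposes it.

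The DNA just upstream of 3 members is shown because *Vegfa*, *Flt1* and *Nrp2* held the pairs of members whose levels were most alike across the 21 libraries. The sequences are RefSeq windows on GRCm38.p6, of 250 bases for *Vegfa* and *Flt1* and 218 for *Nrp2*, read 5′ to 3′ on the gene's strand and ending before the annotated start. Capitals mark the hypoxia response cores ACGTG and GCGTG, the GC box GGGCGG and the AP-1 site TGACTCA, on either strand, with overlapping matches run together.
Vegfa, chr17:46032378-46032627, minus strand: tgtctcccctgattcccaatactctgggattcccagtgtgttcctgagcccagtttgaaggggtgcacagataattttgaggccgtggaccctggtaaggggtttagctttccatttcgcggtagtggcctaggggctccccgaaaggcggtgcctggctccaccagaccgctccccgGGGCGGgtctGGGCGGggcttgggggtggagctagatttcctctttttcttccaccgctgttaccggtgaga
Flt1, chr5:147726012-147726261, minus strand: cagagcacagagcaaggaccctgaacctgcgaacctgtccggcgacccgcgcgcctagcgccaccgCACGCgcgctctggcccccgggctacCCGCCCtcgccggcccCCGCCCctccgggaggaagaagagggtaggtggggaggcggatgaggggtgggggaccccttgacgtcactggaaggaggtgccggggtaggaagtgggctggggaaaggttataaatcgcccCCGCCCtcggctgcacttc
Nrp2, chr1:62703067-62703284, plus strand: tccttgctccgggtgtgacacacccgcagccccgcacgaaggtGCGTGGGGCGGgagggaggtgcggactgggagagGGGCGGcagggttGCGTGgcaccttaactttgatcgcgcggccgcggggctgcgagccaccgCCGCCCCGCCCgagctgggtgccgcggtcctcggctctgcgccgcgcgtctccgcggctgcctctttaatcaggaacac
The *Vegfa* window shown held 2 GC boxes and no hypoxia core, the *Flt1* window 3 GC boxes and 1 GCGTG core, and the *Nrp2* window 4 GC boxes and 2 GCGTG cores. None of these 3 windows held ACGTG or the AP-1 site. A second RefSeq window of *Vegfa*, chr17:46025164-46025413, lies inside the gene and held 1 ACGTG and 1 GCGTG core. Over 32851 RefSeq windows of 250 bases, 16.6% held ACGTG, 28.2% GCGTG, 32.7% the GC box and 4.46% the AP-1 site, so the GC box is common. These matches describe letters in the windows and no binding. All 10 members are protein-coding genes, and on GRCm38 (GENCODE vM21) *Vegfa* spans chr17:46016993-46032369, *Flt1* chr5:147561604-147726011, *Kdr* chr5:75932827-75978458, *Nrp1* chr8:128358604-128503363 and *Nrp2* chr1:62703285-62818695.

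Levels are given as CPM, each library's counts scaled to a common total, after TMM scaling, which corrects for differences in library composition, and ± gives the SD. Totals ranged from 6891142 to 18592381 counts per library, and a count of 0 allows up to 3 counts, which is between 0.161 and 0.435 CPM. These limits cover counting error only. Groups were compared by the two-sided quasi-likelihood F test of edgeR with Benjamini-Hochberg adjustment over all genes tested, and a gene is called at an adjusted p under 0.05. Changes are given on the log2 scale with a standard error (SE). In bulk libraries, fewer cells of a type and less RNA per cell cannot be told apart.

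Several libraries stood apart from their groups. In the count table KRM RAS replicate 1 correlated with the KRM Sham libraries by 0.938 on average and with the other KRM RAS libraries by 0.814, and its column in the second deposited table, of log2 values, corresponded to it by only 0.671, against 0.895 or more for every other library. That log2 column was closest to the counts of CD11chi RAS replicate 2 (0.76), and the count column to those of CD11chi RAS replicate 1 (0.948). The fits by limma use the log2 table and so carry this doubt, and the library labelled KRM RAS replicate 1 is given by its own value, from the counts, for each member and for many of the other genes named. Of the KRM RAS libraries it had the least *Flt1*, *Kdr*, *Nrp2* and *Vegfb* in the counts and the most in the log2 table, with the reverse for *Nrp1*. *Vegfa*, *Vegfc* and *Angpt1* were least in it in both tables. Proximal tubule markers (10 genes) summed to 15670, 6255 and 2359 CPM in replicate 3 of CD11chi, CD11clo and KRM Sham, and to 136 to 448 CPM in the other Sham libraries. KRM RAS replicates 2 and 3 held 6446 and 4843 CPM of distal nephron and collecting duct markers (14 genes), against 14.7 to 242 CPM in KRM Sham, where *Slc4a1* was at 0. Their endothelial markers (12 genes) summed to 275 and 244 CPM against 48.3 to 67.3 CPM in KRM Sham, and their fibroblast and pericyte markers (11 genes) to 621 and 668 CPM against 21.2 to 42.9 CPM. Replicate 1 of KRM RAS had 151, 71.3 and 45.8 CPM of these lists, and 274 CPM of T and NK cell markers (7 genes), against 34.4 and 29.7 CPM in replicates 2 and 3 and 1.93 to 2.41 CPM in KRM Sham. Dissociation stress genes (7 genes), a sign of handling, summed to 28790 to 44890 CPM in KRM Sham and 17000 to 22750 CPM in KRM RAS, without overlap. Macrophage markers (14 genes) were present in every library, at 9657 CPM in CD11chi Sham replicate 3 and between 17400 and 52880 CPM in the others.

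**Figure D1:**
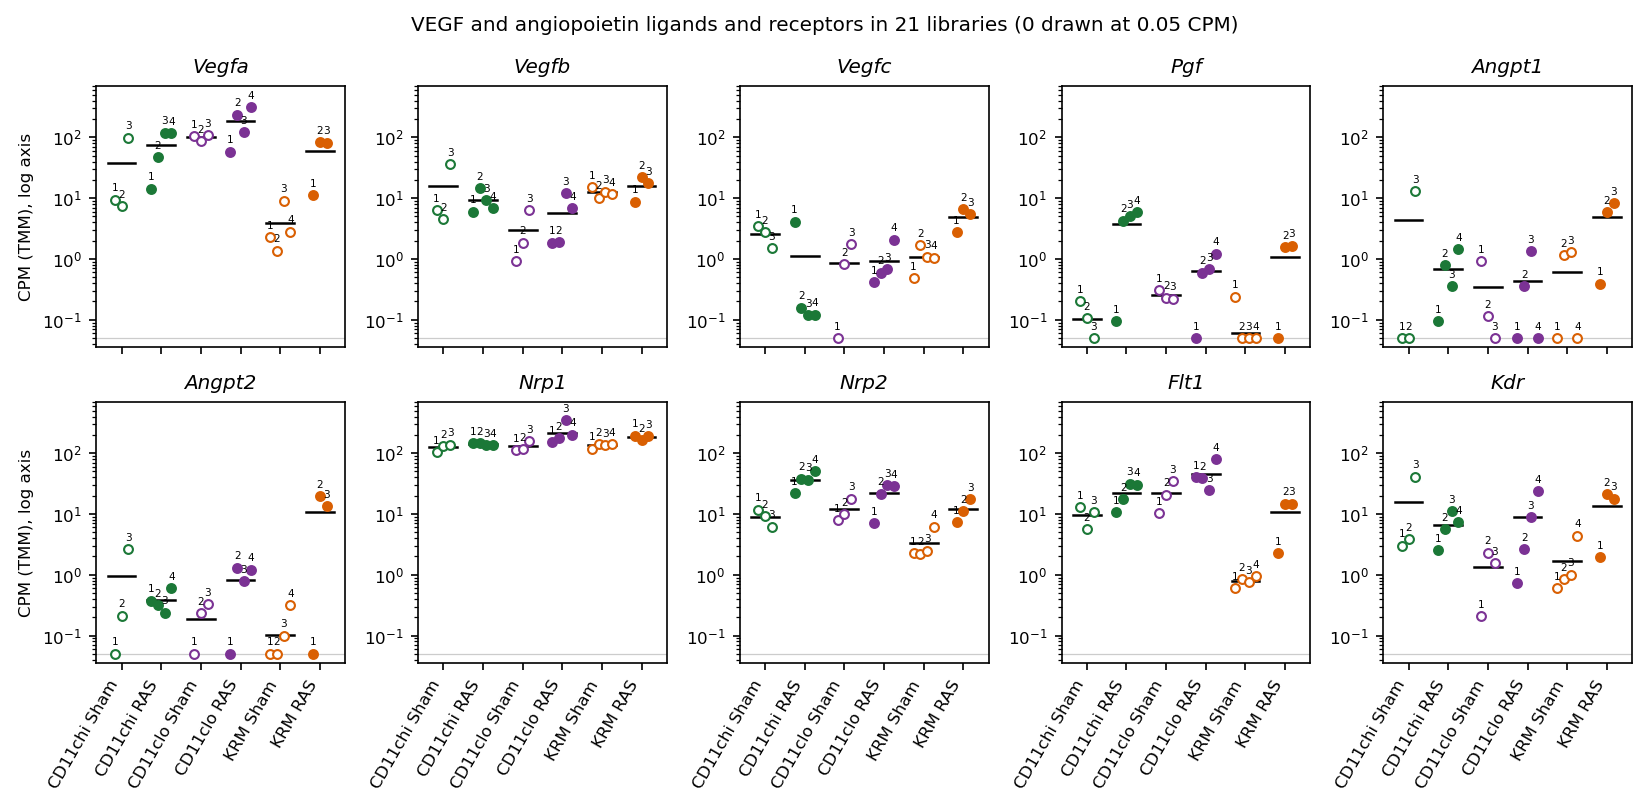
CPM of the 10 members on a log axis, with a panel for each gene, a point for each library (open, Sham, filled, RAS, numbered by replicate) and a line at the group mean; a value of 0 is drawn at 0.05 CPM. *Nrp1* lay between 103 and 347 CPM in every library, while *Vegfa* ran from 1.38 to 316 CPM and *Angpt2* exceeded 3 CPM only in KRM RAS replicates 2 and 3.

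*Vegfa* had its lowest level in KRM of Sham kidneys and its highest in CD11clo Mϕ of RAS kidneys. In KRM Sham it was at 2.29, 1.38, 9.12 and 2.82 CPM in replicates 1 to 4, and in CD11clo Sham at 105, 85.6 and 109 CPM. Every CD11clo Sham library was thus above every KRM Sham library. CD11chi Sham held 9.40 and 7.33 CPM in replicates 1 and 2 and 98.5 CPM in replicate 3, the library with the highest tubule markers of all 21. In RAS kidneys *Vegfa* was at 11.3, 83.5 and 81.9 CPM in KRM, at 14.3, 46.8, 120 and 117 CPM in CD11chi Mϕ, and at 58.4, 236, 121 and 316 CPM in CD11clo Mϕ. Replicate 1 was the lowest RAS library in each population. The order of means ran from CD11clo RAS (183 ± 115 CPM, n = 4) through CD11clo Sham (99.8 ± 12.5, n = 3), CD11chi RAS (74.5 ± 52.5, n = 4), KRM RAS (58.9 ± 41.2, n = 3) and CD11chi Sham (38.4 ± 52.1, n = 3) to KRM Sham (3.90 ± 3.53, n = 4), and the ranges of all neighbours in it overlapped.

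*Vegfb* followed a different order, with more in KRM than in CD11clo Mϕ. KRM Sham held 15.3, 10.2, 12.8 and 11.7 CPM (mean 12.5 ± 2.16) and CD11clo Sham 0.931, 1.86 and 6.30 CPM (mean 3.03 ± 2.87), with no overlap. CD11chi Sham was at 6.40, 4.57 and 36.2 CPM, again high in replicate 3. With RAS the means were 16.1 ± 6.73 CPM in KRM, 9.25 ± 3.92 in CD11chi Mϕ and 5.64 ± 4.83 in CD11clo Mϕ, and neighbours in the order of all 6 groups overlapped.

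*Vegfc* was low throughout, at most 6.60 CPM. In KRM it was at 0.481, 1.69, 1.10 and 1.05 CPM in Sham and at 2.75, 6.60 and 5.49 CPM in RAS, so that every RAS library was above every Sham library. CD11chi Mϕ held 3.50, 2.76 and 1.51 CPM in Sham and 4.13, 0.159, 0.118 and 0.121 CPM in RAS, which is 1 count in each of RAS replicates 2, 3 and 4. The CD11chi RAS group thus held a single library near its Sham group, replicate 1, with 44 counts. CD11clo Mϕ were between 0 and 2.07 CPM in both conditions.

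*Pgf*, which encodes PlGF, was near the limit of counting except in CD11chi Mϕ of RAS kidneys. There it was at 0.0937, 4.28, 5.08 and 5.83 CPM, from 1, 27, 43 and 48 counts, while CD11chi Sham held 0.2, 0.106 and 0 CPM, from 2, 1 and 0 counts. RAS replicate 1 lay within the Sham range and the other 3 RAS libraries above it. KRM RAS held 0, 1.56 and 1.65 CPM and the other groups at most 1.22 CPM.

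The angiopoietins were counted mainly in single libraries. *Angpt2* was at 0, 19.6 and 13.3 CPM in KRM RAS, from 0, 226 and 145 counts, and at most 0.314 CPM in KRM Sham. The KRM RAS libraries with *Angpt2* were the pair rich in distal nephron markers, and CD11chi Sham replicate 3, with 1995 CPM of those markers, had the next highest *Angpt2*, 2.64 CPM. *Angpt1* was at 12.9 CPM in CD11chi Sham replicate 3 and 0 in the other 2 libraries of that group, and at 0.393, 5.90 and 8.33 CPM in KRM RAS. The remaining 15 libraries had at most 1.46 CPM of it. What the tubule, endothelial or fibroblast RNA of these libraries contributed to either gene was not tested.

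*Nrp1* was the most even member. Its means ran from CD11clo RAS (218 ± 88.7 CPM) and KRM RAS (182 ± 16.6) to CD11chi RAS (140 ± 6.66), KRM Sham (134 ± 10.4), CD11clo Sham (129 ± 24.0) and CD11chi Sham (124 ± 18). The ranges of KRM RAS and CD11chi RAS did not overlap, and those of the other neighbours did. In KRM it was at 119, 141, 135 and 140 CPM in Sham and at 193, 163 and 190 CPM in RAS, with replicate 1 the highest of the RAS libraries. *Nrp1* differed in this from *Vegfa* and *Flt1*, of which replicate 1 had the least in the counts. In the deposited log2 table KRM RAS replicates 1, 2 and 3 held 6.19, 6.36 and 6.67 of *Nrp1* and 4.84, 2.57 and 2.41 of *Flt1*, the reverse order for replicate 1. *Vegfa*, at 4.37, 5.73 and 5.79 there, was least in replicate 1 in both tables.

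*Nrp2* was highest in CD11chi Mϕ of RAS kidneys. That group held 22.2, 37.9, 36.4 and 50.2 CPM and CD11chi Sham 11.8, 9.24 and 6.15 CPM, with no overlap. KRM held 2.29, 2.22, 2.49 and 6.17 CPM in Sham and 7.37, 11 and 17.5 CPM in RAS, also without overlap. CD11clo Mϕ held 7.96, 9.97 and 17.9 CPM in Sham and 7, 21.6, 30.0 and 28.8 CPM in RAS, where replicate 1 was below the Sham libraries.

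*Flt1* was nearly silent in KRM of Sham kidneys, where 5, 8, 15 and 9 counts gave 0.602, 0.847, 0.748 and 0.941 CPM. CD11chi Sham held 12.8, 5.63 and 10.7 CPM and CD11clo Sham 10.3, 20.6 and 34.4 CPM, all above KRM Sham. Tubule-rich replicate 3 was not the highest of CD11chi Sham here. In RAS kidneys *Flt1* was at 2.26, 14.8 and 14.8 CPM in KRM, 10.6, 17.3, 31.3 and 30.4 CPM in CD11chi Mϕ and 40.2, 38.9, 24.8 and 80.4 CPM in CD11clo Mϕ. The KRM Sham group was the only one whose range was separate from its neighbour in the order of means, CD11chi Sham.

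*Kdr*, an endothelial receptor, was high where endothelial markers were high. CD11chi Sham held 3.00, 3.82 and 40.8 CPM, and the 12 endothelial markers, which do not include *Kdr* or *Flt1*, summed to 56.9, 40.6 and 247 CPM in the same libraries. KRM RAS held 1.964, 21.3 and 17.9 CPM of *Kdr* beside 71.3, 275 and 244 CPM of endothelial markers. CD11clo RAS replicate 4 held 23.9 CPM beside 234 CPM. The other 17 libraries held 0.207 to 11.1 CPM of *Kdr*, and all neighbours in the order of groups overlapped. The 2 genes whose log2 CPM was most like *Kdr* over the 21 libraries, among 14504 genes, were *Cdh5* (Pearson r = 0.909) and *Plvap* (r = 0.901), both on the endothelial list. A correlation here and in what follows is a description over libraries of which several share a population or a condition.

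**Figure D2:**
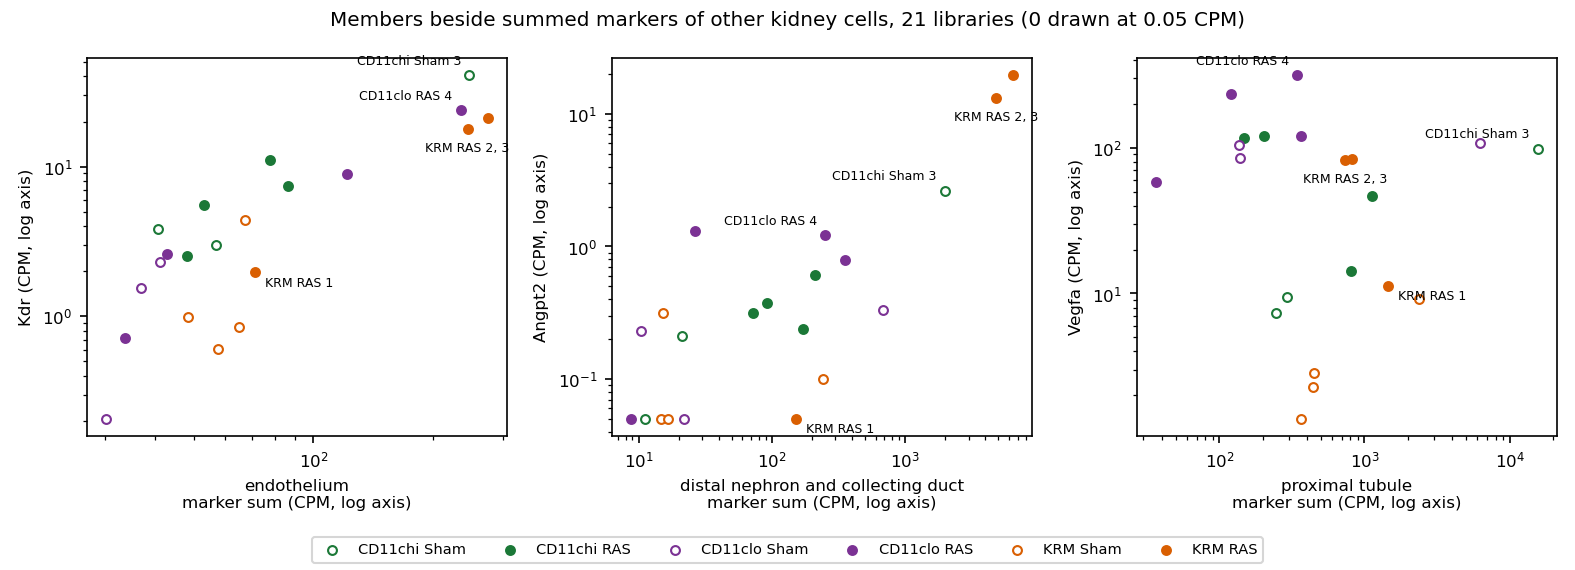
CPM of *Kdr*, *Angpt2* and *Vegfa* against the summed CPM of markers of endothelium, distal nephron and collecting duct, and proximal tubule, with a point for each of 21 libraries on log axes (open, Sham, filled, RAS). The libraries with the most *Kdr* (40.8, 23.9, 21.3 and 17.9 CPM) had the most endothelial markers (247, 234, 275 and 244 CPM), while *Vegfa* was 58.4 CPM or more in all 7 CD11clo libraries, with tubule marker sums between 36.5 and 6255 CPM.

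Per kb of exon, which allows genes to be set against each other, *Nrp1* led in KRM Sham with 13.7 ± 1.06 CPM per kb, followed by *Vegfb* with 7.78 ± 1.34 and *Vegfa* with 0.911 ± 0.824. CD11clo Sham was led by *Vegfa* with 23.3 ± 2.91 CPM per kb, followed by *Nrp1* with 13.2 ± 2.45 and *Vegfb* with 1.89 ± 1.79. In KRM Sham the lowest library of *Nrp1* (12.1) lay above the highest of *Vegfb* (9.52), and in CD11clo Sham the lowest of *Vegfa* (19.97) above the highest of *Nrp1* (15.97). *Pgf*, *Angpt1* and *Angpt2* were at most 0.257 CPM per kb on average in each Sham group, except for *Angpt1* in CD11chi Sham, at 0.828 ± 1.43, which rested on replicate 3. In RAS kidneys *Vegfa* came to 42.6 ± 26.9 CPM per kb in CD11clo Mϕ, 17.4 ± 12.3 in CD11chi Mϕ and 13.8 ± 9.63 in KRM, beside *Nrp1* at 22.3 ± 9.07, 14.3 ± 0.680 and 18.57 ± 1.69.

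**Figure D3:**
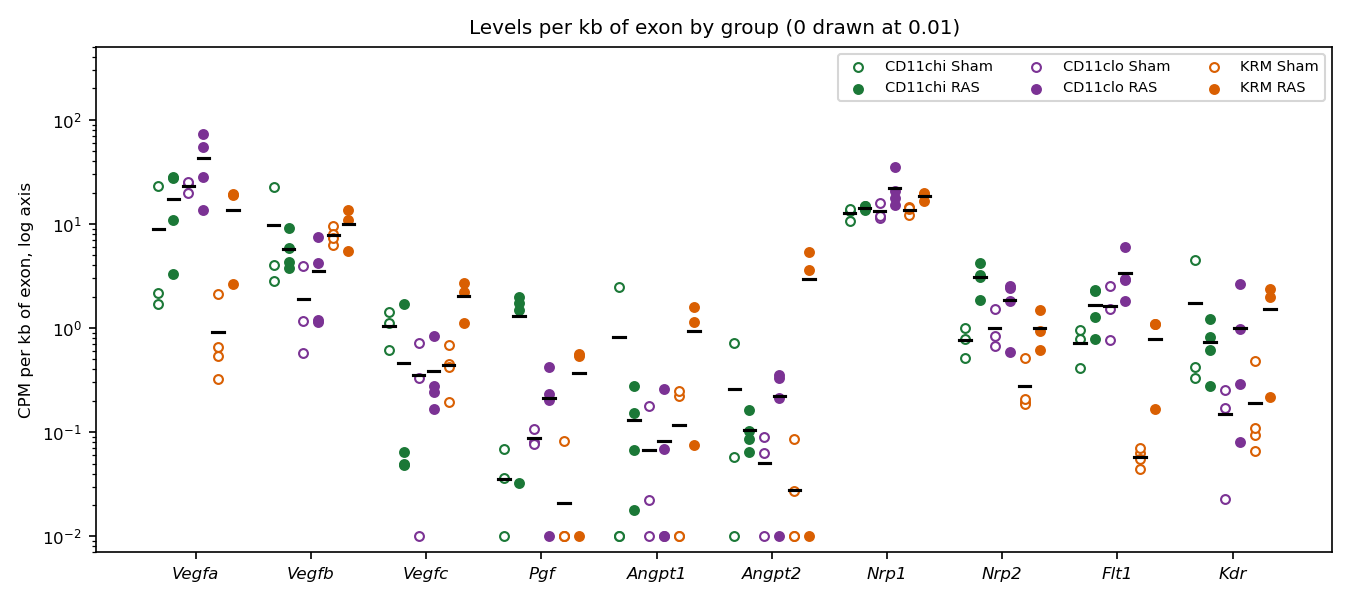
CPM per kb of exon for the 10 members on a log axis, with a point for each library (open, Sham, filled, RAS, coloured by population), a bar at the mean of each group, and 0 drawn at 0.01. *Nrp1* had group means between 12.7 and 22.3 CPM per kb, and in KRM Sham *Vegfb* (7.78 ± 1.34) lay above *Vegfa* (0.911 ± 0.824), the reverse of CD11clo Sham (1.89 ± 1.79 and 23.3 ± 2.91).

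The first question of the design is how KRM differ from monocyte-derived populations in Sham kidneys. Against CD11clo Mϕ, KRM had less *Flt1*, *Vegfa* and *Nrp2* and more *Vegfb*, so 4 of the 7 members tested were called. The background was high, since 41.9% of the 12365 genes tested were called in this comparison. *Flt1* was lower by a log2 fold change of -4.78 (SE 0.427, adjusted p = 7.21e-05) and *Vegfa* by -4.59 (SE 0.57, adjusted p = 4.23e-04). *Nrp2* was lower by -1.88 (SE 0.456, adjusted p = 0.0116) and *Vegfb* higher by 2.04 (SE 0.58, adjusted p = 0.0225). All 4 separated the groups without overlap, though the share of all genes that did so was not counted. All 4 kept their call in a blocked fit by replicate number, and *Flt1*, *Vegfa* and *Nrp2* were called under every alternative. The adjusted p of *Vegfb* reached 0.0714. Beside these, monocyte markers (8 genes) summed to 6755 to 17290 CPM in CD11clo Sham and 576 to 876 CPM in KRM Sham, and neutrophil markers (8 genes) to 906 to 1956 CPM and 90.4 to 117 CPM, with *Ly6g* and *Camp* at 0 in KRM Sham. Dissociation stress genes, at 28790 CPM or more in KRM Sham and 15360 to 26590 CPM in CD11clo Sham, and B cell markers (5 genes), at 597 to 789 CPM and 178 to 289 CPM, also separated the groups without overlap. So did endothelial markers, at 48.3 to 67.3 CPM in KRM Sham and 30.1 to 41.0 CPM in CD11clo Sham, and platelet markers (6 genes), at 0.523 to 1.48 and 5.64 to 16.1 CPM. The part of these cell types or of handling in the member levels was not tested. *Nrp1*, *Vegfc* and *Kdr* did not pass, and *Pgf*, *Angpt1* and *Angpt2* were too low to test.

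Against CD11chi Mϕ in Sham kidneys, *Flt1* was the 1 member of 8 tested that was called, at a log2 fold change of -3.67 (SE 0.391, adjusted p = 0.00532), beside 5.13% of 12380 genes. Dendritic cell markers summed to 359 to 1769 CPM in CD11chi Sham and 108 to 137 CPM in KRM Sham, with 4 of 7 called lower in KRM. Monocyte markers summed to 2577, 3172 and 618 CPM in CD11chi Sham replicates 1, 2 and 3, against 576 to 876 CPM, with 5 of 8 called lower. The part of these cells in *Flt1* was not tested. Same-numbered Sham libraries of the 3 populations deviated together from their group means, and in a blocked fit by replicate number *Flt1* was at -3.68 with an adjusted p of 0.0707, so that 0 members were called. Without CD11chi Sham replicate 3, *Flt1* (-3.55, adjusted p = 0.00197), *Nrp2* (-1.69, adjusted p = 0.0456) and *Vegfb* (1.17, adjusted p = 0.0293) were called, beside 13.6% of genes. *Vegfa* was at -3.35 (SE 1.1, adjusted p = 0.124) with all libraries and -1.05 without that one (adjusted p = 0.336). Without replicate 3 of both groups it was -1.98 (adjusted p = 0.0127) and was called with *Flt1* and *Vegfb*, where 12.1% of genes were.

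Between CD11chi and CD11clo Mϕ of Sham kidneys 0 of 7 members tested were called by edgeR, beside 1.52% of 12105 genes. Without adjustment 1 member passed 0.05, and DESeq2 and limma called 0, beside 1213 of 11584 genes and 0.735% of genes. With the replicate block *Vegfb* was higher in CD11chi Mϕ (2.29, SE 0.461, adjusted p = 0.043), beside 4.92% of genes. Without CD11chi Sham replicate 3 *Vegfa* was lower in them by -3.58 (SE 0.226, adjusted p = 0.00427), beside 5.7% of genes, and 1 member was called in either case.

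The second question is the response to RAS in each population. In KRM 5 members rose, *Flt1*, *Vegfa*, *Vegfc*, *Nrp2* and *Nrp1*, of 8 tested, and 0 fell, beside 9.7% of 12852 genes called. DESeq2 called 6, beside 24.8% of genes, and limma 4, beside 18.5%. A block by replicate number, which did not pair RAS with Sham libraries, left 0 called, beside 0.327%. All 8 had positive estimates, with a median log2 fold change of 2.64 against 0.0157 over all genes tested. *Vegfa* rose by 3.95 (SE 0.843, adjusted p = 0.0342) and *Flt1* by 3.86 (SE 0.643, adjusted p = 0.0231), while *Vegfc* rose by 2.29 (SE 0.493, adjusted p = 0.0346), *Nrp2* by 1.98 (SE 0.47, adjusted p = 0.0419) and *Nrp1* by 0.55 (SE 0.12, adjusted p = 0.0358). These 5 were the members whose 3 RAS libraries all lay above the 4 Sham libraries. The share of all genes separated in this way was not counted, so the separation is a description of the same values. *Kdr* was at 3.14 (SE 0.923, adjusted p = 0.0662) and *Angpt1* at 2.99 (SE 1.28, adjusted p = 0.145), and *Angpt2* and *Pgf*, at 0 in RAS replicate 1, were not tested. Without the library labelled KRM RAS replicate 1 all 10 members were tested and called higher, beside 50.2% of genes, with *Vegfa* at 4.34 (SE 0.578, adjusted p = 7.94e-04) and *Flt1* at 4.29 (SE 0.276, adjusted p = 3.31e-05). Without KRM RAS replicate 2 or 3, or KRM Sham replicate 1, 2 or 4, 0 were called, beside 0.204% to 0.338% of genes, although *Vegfa* stayed at 3.61 to 3.82 and *Flt1* at 3.52 to 3.94, and without KRM Sham replicate 3, 3 were (*Vegfa*, *Flt1* and *Vegfc*), beside 10.6%. In the same comparison 8 of 11 distal nephron markers tested, 3 of 6 endothelial, 5 of 8 fibroblast and pericyte, and 7 of 7 T and NK cell markers were called higher. Of the dendritic cell markers 3 of 7 were called higher and 1 lower, and of the monocyte markers 2 of 8 higher and 1 lower. Of the dissociation stress genes 3 of 7 were called lower. The part of this RNA or of handling in the rise of the members was not tested. Replicate 1 of KRM RAS, with 11.3 CPM of *Vegfa* and 2.26 CPM of *Flt1* against at most 9.12 and 0.941 CPM in KRM Sham, was also above every KRM Sham library in endothelial (71.3 CPM), fibroblast and pericyte (45.8 CPM), T and NK cell (274 CPM) and B cell markers (2118 against at most 789 CPM). Its monocyte (1019 against at most 876 CPM), dendritic cell (147 against at most 137 CPM) and neutrophil sums (125 against at most 117 CPM) were above them too. Its distal nephron sum (151 CPM) and proximal tubule sum (1452 CPM) lay within the ranges of KRM Sham, 14.7 to 242 CPM and 366 to 2359 CPM, where replicate 3 set the top of both.

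In CD11chi Mϕ 0 of 8 members tested were called with RAS by edgeR, as were 0.0% of 12739 genes, although 3 members and 1247 genes passed 0.05 without adjustment. DESeq2 called 188 genes (1.57%), *Nrp2* and *Pgf* among them, and limma called 0. *Nrp2* had a log2 fold change of 1.93 (SE 0.36, adjusted p = 0.508, and 5.80e-04 by DESeq2), with 4 of 4 RAS libraries above the 3 Sham libraries. *Pgf* had an adjusted p of 0.508, and 0.0352 by DESeq2, and *Flt1* was at 1.10 (SE 0.477, adjusted p = 0.509). Dendritic cell markers (7 genes) summed to 994, 2034, 4822 and 5125 CPM in the RAS replicates 1 to 4 and 359 to 1769 CPM in Sham, and fibroblast and pericyte markers to 38.2, 354, 97.7 and 154 CPM against 20.8 to 49.9 CPM. T and NK cell markers summed to 60.4 to 197 CPM against 2.55 to 24.4 CPM. Replicate 1, lowest of the RAS libraries in *Pgf* and *Nrp2*, was also lowest in dendritic and fibroblast markers, and the part of these cells in either gene was not tested. Without RAS replicate 1 and Sham replicate 3, 4 members were called beside 3.46% of genes: *Vegfa* (3.42, SE 0.477, adjusted p = 0.021), *Nrp2* (1.91, SE 0.294, adjusted p = 0.029) and *Pgf* (adjusted p = 0.0294) higher, and *Vegfc* lower (-4.50, SE 0.811, adjusted p = 0.0402). That choice was made after seeing the data. Without Sham replicate 3 alone the estimates of *Vegfb* and *Kdr*, not called in either fit, turned from -0.90 to 0.71 and from -1.41 to 0.89.

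In CD11clo Mϕ 0 of 6 members tested were called by edgeR, beside 0.0% of 12301 genes. Without adjustment 1 member, *Nrp1*, and 1102 genes passed 0.05. DESeq2 called 107 genes (0.883%) and limma 0, in each case with no member among them. *Nrp1* was at 0.74 (SE 0.309, adjusted p = 0.553). All 6 estimates were positive, with a median of 0.85 against -0.02 over all genes. The study called genes from DESeq2 by fold (above 2) and p (under 0.05), and does not say whether p was adjusted. With those thresholds on the edgeR fit the members called were 6 in KRM, 3 in CD11chi Mϕ and 0 in CD11clo Mϕ, beside 16.4%, 8.07% and 4.37% of genes.

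**Figure D4:**
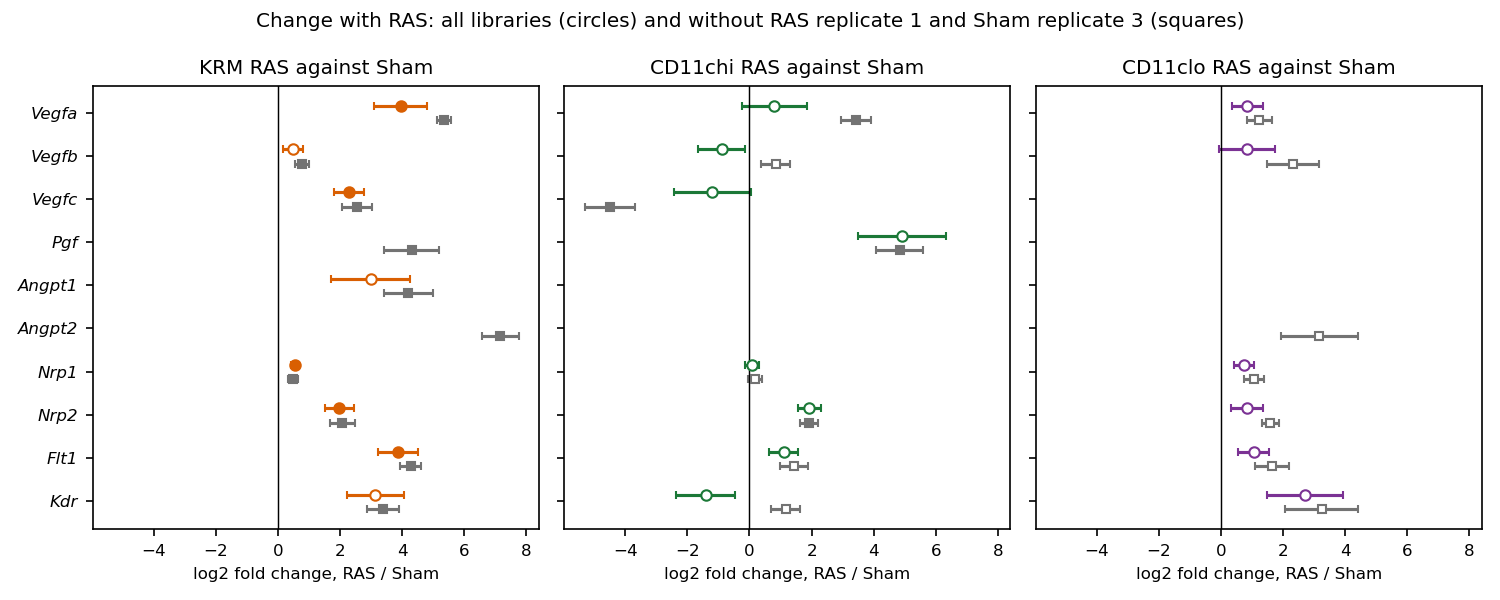
Log2 fold change of RAS over Sham with its standard error for each member in KRM, CD11chi and CD11clo Mϕ, from all libraries (circles) and without RAS replicate 1 and Sham replicate 3 (squares); filled symbols have an adjusted p under 0.05 and untested genes have no symbol. In KRM 5 circles are filled, at 3.95 for *Vegfa* and 3.86 for *Flt1*, and *Vegfa* in CD11chi Mϕ moves from 0.80 to 3.42 without those libraries.

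Whether populations differed in their response was tested by interaction, and 0 of 10 members were called in each of the 3 pairs of populations, beside 0.0%, 0.245% and 0.0% of genes for KRM minus CD11chi, KRM minus CD11clo and CD11chi minus CD11clo. At an unadjusted p under 0.05 there were 5, 2 and 1 members, and DESeq2 called 3, 2 and 0, beside 8.92%, 10.4% and 0.116% of genes. *Flt1* rose more in KRM than in CD11chi Mϕ by an estimate of 2.68 (SE 0.799, adjusted p = 0.105) and than in CD11clo Mϕ by 2.69 (SE 0.825, adjusted p = 0.101), and *Vegfa* more than in CD11clo Mϕ by 3.01 (SE 1.01, adjusted p = 0.115), none past the threshold. The estimate of *Angpt1* for KRM minus CD11chi, 5.73 (adjusted p = 0.215), turned to -2.79 without CD11chi Sham replicate 3. Without KRM RAS replicate 1 the first 2 pairs had 3 and 2 members called, beside 7.4% and 16.1% of genes, and without CD11chi RAS replicate 1 the first had 1, beside 0.412%. The comparisons of KRM with the other populations share the KRM libraries.

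Among RAS kidneys *Nrp2* was called lower in KRM than in CD11chi Mϕ, at -1.55 (SE 0.392, adjusted p = 0.0479), the 1 call of 9 members tested beside 9.23% of 13226 genes. Leaving out any 1 of CD11chi RAS replicates 2, 3 and 4 or KRM RAS replicates 2 and 3 left 0 members called, as did scaling by total library size, limma and the replicate block, where *Nrp2* was at -1.42 (adjusted p = 0.0876). Without KRM RAS replicate 1, 3 members were called beside 19.6% of genes, and without CD11chi RAS replicate 1, 2 beside 17.6%. Dendritic cell markers summed to 994 to 5125 CPM in CD11chi RAS and 122 to 177 CPM in KRM RAS, with 4 of 7 called lower in KRM, and monocyte markers to 1120 to 2760 CPM and 609 to 1019 CPM, and the part of these cells in *Nrp2* was not tested. Against CD11clo Mϕ 0 of 10 members were called by edgeR, with 4 at an unadjusted p under 0.05 and 2 called by DESeq2 and 0 by limma, beside 9.17% of genes for edgeR, 24.5% for DESeq2 and 5.24% for limma. *Vegfc* was the nearest, at 2.43 (SE 0.688, adjusted p = 0.0623), with every KRM RAS library above every CD11clo RAS library, and *Flt1* was at -2.07 (SE 0.697, adjusted p = 0.0915), below without overlap. Without KRM RAS replicate 1, 2 members were called beside 23.0% of genes. Between CD11chi and CD11clo Mϕ 0 of 7 were called, with 3 at an unadjusted p under 0.05 and 0 by DESeq2 and limma, beside 8.27%, 16.7% and 8.16% of genes by edgeR, DESeq2 and limma. Without the RAS libraries of replicate 1, 6 members were called between KRM and CD11chi Mϕ, 4 higher and 2 lower beside 30.2% of genes, and 5 between KRM and CD11clo Mϕ, 3 higher and 2 lower beside 29.1%. *Angpt2* (adjusted p = 0.00163 and 0.00182), *Angpt1* (0.0163 and 0.036) and *Vegfc* (0.00244 and 0.0329) were higher in KRM in both, and *Kdr* against CD11chi Mϕ (1.37, adjusted p = 0.032). KRM RAS is then replicates 2 and 3 alone, with 6446 and 4843 CPM of distal nephron markers against 72.4 to 212 CPM in the CD11chi and 26.5 to 355 CPM in the CD11clo libraries kept. Their endothelial sums (275 and 244 CPM) and fibroblast and pericyte sums (621 and 668 CPM) also lay above those of every CD11chi library kept (at most 86.3 and 354 CPM) and every CD11clo library kept (at most 234 and 450.0 CPM). The part of that RNA in these calls was not tested. *Nrp2* (-1.46, adjusted p = 0.0149) and *Pgf* (adjusted p = 0.0492) were lower in KRM than in CD11chi Mϕ, and *Vegfa* (-1.45, adjusted p = 0.0341) and *Flt1* (-1.71, adjusted p = 0.0399) lower than in CD11clo Mϕ. Over all RAS libraries monocyte markers summed to 3324 to 9567 CPM in CD11clo Mϕ and 609 to 1019 CPM in KRM, and neutrophil markers to 1941 to 3614 CPM and 65.0 to 125 CPM, and the part of these cells was not tested. Without the RAS libraries of replicate 1, *Pgf* was higher in CD11chi than in CD11clo Mϕ (2.60, SE 0.559, adjusted p = 0.0209), the 1 call beside 14.4% of genes. Dendritic cell markers summed to 2034 to 5125 CPM in the CD11chi and 250 to 394 CPM in the CD11clo libraries kept, and neutrophil markers to 12.0 to 149 and 2143 to 3614 CPM. The part of these cells in *Pgf* was not tested.

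Genes that work with the members were followed in 5 lists. With RAS in KRM the share called over all genes was 9.7% and the median log2 fold change 0.0157, and values of RAS replicates 1, 2 and 3 are given in that order. Of 17 genes of VEGF receptor signalling, 3 of 16 tested rose, with a median of 0.69. *Sh2d2a*, an adaptor of T cells that also binds KDR, was at 22.2, 3.99 and 4.21 CPM against at most 0.349 CPM in Sham (adjusted p = 0.0214), highest in the library with the most T and NK cell markers. The part of T and NK cells in *Sh2d2a* was not tested. *Prkca*, a protein kinase C, was at 4.42, 14.6 and 11.6 CPM against at most 2.54 CPM (adjusted p = 0.0293). Of 8 angiopoietin and Tie genes, 2 rose, with a median of 2.58 over the list. *Angptl2* was at 1.77, 14.6 and 12.9 CPM against at most 1.69 CPM (adjusted p = 0.0342), and *Dok2*, an adaptor of the receptor encoded by *Tek* that blood cells also use, at 34.4, 16.5 and 18.1 CPM against at most 9.10 CPM (adjusted p = 0.028). *Tek* itself, named outside the rule for list genes after its values were seen, was at 0.299 to 1.99 CPM in KRM Sham and 0.0982 to 21.2 CPM in KRM RAS. Of the 7 neuropilin ligands and plexins tested, 3 rose, with a median of 1.04. The secreted semaphorin *Sema3c* was at 5.30, 84.2 and 66.3 CPM against at most 2.69 CPM (adjusted p = 0.0269), and *Sema3f* at 1.08, 14.3 and 12.6 CPM against at most 0.627 CPM (adjusted p = 0.0301).

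Of 19 hypoxia factors and targets 2 were called higher in KRM of RAS kidneys, a share near that of all genes, with a median of 0.42. *Egln3*, an oxygen-sensing prolyl hydroxylase, was counted at 0 in all KRM Sham libraries and at 1.08, 7.12 and 4.76 CPM in RAS (adjusted p = 0.0308). *Epas1*, the hypoxia factor of endothelium, was at 1.28, 28.7 and 32.4 CPM against 0.732 to 1.80 CPM in Sham (adjusted p = 0.0414), so that replicate 1 lay within the Sham range. Of 13 other angiogenic and angiostatic factors tested 6 rose and 1 fell, with a median of 1.11. *Hbegf* was at 1.57, 269 and 210 CPM against at most 0.947 CPM (adjusted p = 0.027) and *Ctgf* at 0.491, 120 and 129 CPM against 0.418 to 1.27 CPM (adjusted p = 0.0346), again with replicate 1 within the Sham range. *Pdgfb*, which recruits pericytes, fell, at 92.4, 60.4 and 69.1 CPM against 119 CPM or more in Sham (adjusted p = 0.0324). Except for *Sh2d2a* and *Dok2*, the genes named here that rose were highest in replicates 2 and 3, the libraries rich in distal nephron, endothelial and fibroblast markers, and the part of that RNA was not tested. Across alternatives 0 to 9 genes of the VEGF receptor list, 0 to 6 of the angiopoietin list, 0 to 7 of the neuropilin list, 0 to 11 of the hypoxia list and 0 to 9 of the last list were called higher. In CD11chi and CD11clo Mϕ none of the 5 lists held a gene called with RAS by edgeR, where no gene was called at all.

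In Sham kidneys KRM differed from CD11clo Mϕ in 11 of 14 VEGF receptor signalling genes tested, 4 higher and 7 lower, beside 41.9% of all genes. With the replicate block, which pairs Sham libraries, 3 were higher and 6 lower. *Src* (3.30) and *Hspb1* (1.83) were the largest higher and *Prkca* (-3.03) and *Ptk2* (-2.80) the largest lower, with adjusted p between 8.53e-04 and 0.0173. *Dok2* was lower by -4.25 (adjusted p = 8.47e-06) and *Angpt4* higher by 3.25 (adjusted p = 0.0456), the 2 calls of 6 angiopoietin and Tie genes. *Plxna4*, a semaphorin co-receptor, was higher by 4.22 (70.2 ± 17.2 against 3.70 ± 1.46 CPM, adjusted p = 3.33e-05), and *Plxnd1*, an endothelial semaphorin receptor, was lower by -1.51 (adjusted p = 3.69e-04). *Thbs1*, an angiostatic matrix protein, was lower by -6.20 (19.6 ± 2.5 against 1418 ± 729 CPM, adjusted p = 8.78e-06) and *Hbegf* by -4.23, while *Pdgfb* (3.62) and the angiostatic *Serpinf1* (3.52) were higher. Of 18 hypoxia genes 7 were lower, *Ankrd37* (-2.17) and *Pgk1* (-1.51) most, and 2 higher, *Car9* (1.93) and *Pfkfb3* (1.13), and with the replicate block 8 were lower and 2 higher.

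Against CD11chi Mϕ in Sham kidneys, where 5.13% of all genes were called, 7 list genes were. *Ptk2* (-3.86), *Dok2* (-3.43), *Angptl2* (-2.65) and *Thbs1* (-3.12) were lower in KRM, and *Plxna4* (1.49), *Serpinf1* (1.34) and *Pdgfb* (1.29) were higher, with adjusted p between 0.0169 and 0.0338. With the replicate block the lists held 2 calls in place of 7, 1 lower in the VEGF receptor list and 1 lower in the angiopoietin list. *Plxna4* was also higher in CD11chi than in CD11clo Mϕ (2.76, adjusted p = 0.0479), the 1 list gene called there, and with the block 3 of the other angiogenic and angiostatic factors were called higher.

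In RAS kidneys 8 list genes were called between KRM and CD11chi Mϕ, beside 9.23% of all genes, and 9 between KRM and CD11clo Mϕ, beside 9.17%. KRM had less *Dok2* than CD11chi (-3.24, adjusted p = 0.00802) and CD11clo Mϕ (-2.32, adjusted p = 0.0252), with 34.4, 16.5 and 18.1 CPM in KRM RAS replicates 1, 2 and 3 and 76.4 CPM or more in each library of the others. They had less *Plxnd1* too (-2.21 and -1.31, adjusted p = 0.0265 and 0.0183), at 29.8, 36.0 and 39.7 CPM. *Ndrg1* was higher (2.15 and 1.67, adjusted p = 0.0253 and 0.0402), at 143, 408 and 332 CPM.

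Against CD11chi Mϕ, KRM had more *Sema3c* (4.73, adjusted p = 0.0338), *Sema3b* (3.75, adjusted p = 0.0388), *Col18a1* (4.25, adjusted p = 0.0457) and *Cyr61* (3.89, adjusted p = 0.0205). *Sema3b* was at 3.24, 28.1 and 25.4 CPM against at most 3.01 CPM, *Cyr61* at 88.9, 583 and 524 CPM against at most 34.9 CPM, and *Col18a1* at 6.97, 328 and 274 CPM against 4.97 to 19.9 CPM, so that replicate 1 of *Col18a1* lay within the CD11chi range. These 4 genes and *Ndrg1* were highest in replicates 2 and 3, the libraries rich in distal nephron, endothelial and fibroblast markers, whose part was not tested. With the replicate block the neuropilin list held 1 call higher and 0 lower, so that *Plxnd1* lost its call, the hypoxia list and the list of other factors held 0, and each list reached 0 in either direction under at least 1 alternative. Against CD11clo Mϕ, KRM had less *Thbs1* (-4.44, adjusted p = 0.0448), *Plcg2* (-1.37, adjusted p = 0.0331), *Mapkapk2* (-1.24, adjusted p = 0.0313) and *Ero1l* (-0.88, adjusted p = 0.0268). *Thbs1* was at 19.8, 171 and 180 CPM in KRM RAS and 689 CPM or more in CD11clo RAS, beside the monocyte and neutrophil sums given above. With the replicate block the VEGF receptor list held 1 call higher and 0 lower and the hypoxia list 3 higher and 0 lower, so that *Plcg2*, *Mapkapk2* and *Ero1l* lost their calls. The angiopoietin list then held 0 higher and 1 lower, the neuropilin list 2 higher and 1 lower, and the list of other factors 5 higher and 1 lower. Without the block these 3 lists held 0 higher and 1 lower each. Without KRM RAS replicate 2 or 3, 0.0% of all genes, and so none of the lists, were called against CD11clo Mϕ. CD11chi Mϕ of RAS kidneys had more *Sh2d2a* (2.53) and *Car9* (1.46) and less *Thbs1* (-5.08) and *Mapkapk2* (-1.12) than CD11clo Mϕ, with adjusted p between 0.00626 and 0.0326 and beside 8.27% of all genes. T and NK cell markers summed to 60.4 to 197 CPM in CD11chi RAS and 8.47 to 29.9 CPM in CD11clo RAS, and dendritic cell markers to 994 to 5125 and 106 to 394 CPM. Monocyte markers summed to 1120 to 2760 and 3324 to 9567 CPM, and neutrophil markers to 12.0 to 334 and 1941 to 3614 CPM. The part of these cells was not tested.

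The members differed in the genes whose levels were most like theirs over the 21 libraries. *Flt1* was nearest to *Il6* (r = 0.963) and *Nfil3* (r = 0.957), and *Vegfa* to *Pim3* (r = 0.939) and *Isca1* (r = 0.917). *Nrp2* was nearest to *Egr2* (r = 0.937) and *Pltp* (r = 0.928), and *Nrp1* to *Abca1* (r = 0.906) and *Impact* (r = 0.863). *Vegfb* was nearest to *1700019E19Rik* (r = 0.91) and *E2f5* (r = 0.905), *Vegfc* to *Zfp672* (r = 0.753) and *Slc12a2* (r = 0.732), and *Pgf* to *Timp1* (r = 0.901) and *Mt1* (r = 0.9). *Angpt1* was nearest to *Zfp385b* (r = 0.894) and *Gga2* (r = 0.87), and *Angpt2* to *Gm10664* (r = 0.949) and *Bmpr1b* (r = 0.948). Among the members themselves *Flt1* and *Vegfa* were closest (r = 0.893), then *Flt1* and *Nrp2* (r = 0.807), and *Flt1* and *Vegfb* were farthest apart (r = -0.326).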

How the data were processed

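RNA of sorted macrophages was amplified with a SMART-Seq v4 kit and sequenced paired-end. The authors aligned reads to mm10 with OSA and deposited estimated counts per Ensembl gene, of which 9.7% to 14.23% per library were not whole. A second deposited table held log2 values of TPM + 1 after quantile normalization by the authors, and it lacked *Pgf* and *Angpt2*. Estimated counts were rounded, and the 3730 of 37620 lines that shared a name were summed, which left 34236 names. Each comparison used edgeR 4.0.16 (TMM, filterByExpr with a minimum count of 10, quasi-likelihood F test) on the groups compared, in R 4.3.3. Alternatives were other scalings, no filter, 1 fit over 6 groups, a block by replicate number, leaving out libraries, limma 3.58.1 on the deposited log2 values, and DESeq2 1.42.0. Tests were tried on simulated counts. Correlations used log2 CPM with a prior count of 2.

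Members and lists were chosen with earlier results of these data known. Named list genes were those called with the largest change in each direction, up to 2 per list, and the 2 genes whose levels correlated best with each member. Replicate numbers paired the Sham libraries of different populations, from the data (correlations of deviations 0.201 to 0.647). Between populations in RAS these correlations were 0.054 to 0.505, and pairing there was less sure. RAS and Sham libraries were not paired. Replicates differed by more than counting noise.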

Additional observations from a re-analysis of the deposited data

Results flagged for a closer look

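In groups of 4 libraries, 5 of the 30 combinations of a member and a group held a library far from the others by Dixon's criterion. Its chance rate of about 1 in 20 holds for normal values. These were untransformed CPM, some from few counts, and all 5 were the highest of their group, so no excess over chance is read from the number. *Vegfc* was at 4.12 CPM in CD11chi RAS replicate 1, against 0.118 to 0.159 CPM in the other 3 libraries. *Vegfc* was also at 2.07 CPM in CD11clo RAS replicate 4, against 0.412 to 0.678 CPM. *Nrp2* was at 6.17 CPM in KRM Sham replicate 4, against 2.22 to 2.49 CPM, and *Kdr* in the same library at 4.39 CPM, against 0.602 to 0.997 CPM. *Pgf* was at 0.241 CPM in KRM Sham replicate 1, from 2 counts, and at 0 in the other 3. That value lies under the 0.343 CPM that a count of 0 allows there, so it cannot be told from 0.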

How the results depend on the processing

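Among members with an adjusted p under 0.3 or an unadjusted p under 0.05, 1 estimate reversed: *Angpt1* in the response of KRM minus CD11chi (5.73) was -1.94 without the Sham libraries of replicate 3, -1.75 without those and RAS replicate 1, and -2.79 to 6.47 without single libraries, lowest without CD11chi Sham replicate 3. For KRM RAS against Sham, where 5 members were called, the count was 0 with the replicate block, 0 to 10 without single libraries and 10 without RAS replicate 1 and Sham replicate 3. It was 0 without KRM Sham replicate 1, 2 or 4 or KRM RAS replicate 2 or 3. For CD11chi RAS against Sham (0 called) it was 2 by DESeq2, 3 by the study's thresholds taken on unadjusted p, 4 without RAS replicate 1 and Sham replicate 3, and 0 to 0 without single libraries. For KRM against CD11chi in Sham (1 called) it was 0 with the replicate block, 2 by DESeq2, 3 without the Sham libraries of replicate 3, and 1 to 3 without single libraries. For KRM against CD11clo in Sham (4 called) it was 3 to 4 without single libraries. For CD11chi against CD11clo in Sham (0 called) it was 1 with the block, 1 without the Sham libraries of replicate 3, and 0 to 1 without single libraries.

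For KRM against CD11chi in RAS (1 called) it was 0 by total library size, 2 with no filter, 2 in 1 fit over 6 groups, 0 by limma, 0 with the block, 3 by DESeq2, 6 without the RAS libraries of replicate 1, and 0 to 3 without single libraries. For KRM against CD11clo in RAS (0 called) it was 1 by total library size, 1 in 1 fit over 6 groups, 2 with the block, 2 by DESeq2, 5 without the RAS libraries of replicate 1, and 0 to 2 without single libraries. Total library size moved the median of all genes in these comparisons from 0.0318 to 0.265 and from 0.0562 to 0.267. For CD11chi against CD11clo in RAS (0 called) it was 1 with the block and 1 without the RAS libraries of replicate 1. For the responses of KRM minus CD11chi and KRM minus CD11clo (0 called) it was 3 and 2 by DESeq2, 3 and 3 without the RAS libraries of replicate 1, 2 and 2 without those and Sham replicate 3, and 0 to 3 and 0 to 2 without single libraries. The cause of these changes was not tested. Fits that left out several libraries were chosen after seeing the data.

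Between RAS and Sham the replicate numbers did not pair the libraries (lowest correlations -0.196, 0.076 and -0.167 in CD11chi, CD11clo and KRM). Between populations in RAS the correlations ran from 0.054 to 0.505. The own number was the best match for every replicate of CD11clo with KRM RAS. For CD11chi RAS it was so for replicates 1, 2 and 4 with CD11clo RAS and 1 and 2 with KRM RAS. The labels do not say whether a number marks the same mouse, so the block there is a hint only. At these depths a member under 0.161 to 0.435 CPM cannot be told from 0.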
